A study of Mus musculus with 15 samples.

Results

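Compact-type ventricular cardiomyocytes take their name from the working muscle of the outer ventricular wall. Here they are the 7463 cells that passed a set of expression gates, out of 55152 cells deposited from 15 libraries of whole hearts. Their position in the wall was not measured. The cells were chosen by their own measured transcripts. A member had at least 300 detected genes, at least 2% of its unique molecular identifiers (UMIs, each the tag of 1 captured transcript) from 7 genes of the cardiac contractile apparatus (Actc1, Tnnt2, Tnni1, Tnnc1, Myl4, Myl7 and Ttn), and at least 3 UMIs in all from Myl2, Myl3, Mb and Ckm. Those 4 genes together had to outnumber 4 atrial genes (Sln, Mybphl, Myl1 and Vsnl1). A member also had fewer than 2 UMIs of the trabecular genes Nppb, Cited1, Gja5 and Gtsf1 and fewer than 3 of 10 genes of mitosis. Of 50899 cells with enough genes, 23730 passed the contractile gate, and these held 7463 compact-type, 2393 atrial, 4481 trabecular-type and 8077 mitotic cells.

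The study asked by its title what loss of the secreted metalloprotease ADAMTS19 does in a heart that goes on to develop valve disease. Whole hearts of C57BL6/N embryos at E14.5 (mid-gestation) were dissociated and profiled by Drop-seq, a droplet method that reads the 3′ end of polyadenylated transcripts. The 8 libraries of Adamts19 homozygous knockout (KO) embryos gave 4076 members, and the 7 wild-type (WT) libraries gave 3387. Of the KO libraries, replicate 1 (litter 5) and replicates 2 to 4 (litter 6) have the tm4a allele, and replicates 5 to 8 (litter 7) have tm4b. WT replicates 1 and 2 are of litter 1, replicates 3 and 4 of litter 2, replicate 5 of litter 3, and replicates 6 and 7 of litter 4. No group carries a further allele or agent in the labels, the knockout is in every cell of the embryo, and the labels state neither how many embryos a library pools nor what each allele removes from Adamts19. Libraries are the replicates in every test, and since several come from the same litter, p-values measure the spread between libraries only.

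The ventricular wall of a mid-gestation mouse heart has an inner layer of muscular ridges, the trabeculae, and an outer compact layer that grows by cell division and later makes up most of the wall. Compact muscle is known for ventricular isoforms of the contractile proteins and for regulators such as Hey2 that hold back the trabecular and atrial programmes, whereas atrial muscle makes its own myosin light chains and large amounts of atrial natriuretic peptide. Dissociated hearts shed RNA into the droplets, so abundant muscle transcripts are also found at a low level in cells that do not make them.

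Members numbered 331 to 680 in KO and 256 to 775 in WT libraries, and their summed UMIs per library ran from 481806 to 1249613. Compact-type cells were shallow, with a median of 954 UMIs per cell (middle 50% from 579 to 2036). The median was 2166 in atrial, 2592 in trabecular-type and 3019 in mitotic cells. The limits on trabecular and mitotic UMIs are absolute counts, so a deeper cell passes them less often, and 3572 members (47.9%) had 1000 UMIs or more. When each cell was first thinned to 1000 UMIs, 6511 cells met the gates, 3475 of them members; results that change with that choice are given beside it. Cell barcodes were shared between libraries for 186 cells of the table, 20 of them members. No doublets were called here, and 4388 members (58.8%) had 3 or more UMIs of markers of non-muscle or other cells. For haemoglobin and other erythroid genes alone, 1925 members (25.8% of all members) had 3 or more UMIs. WT replicate 4 stood apart in this: 88.3% of its members had 3 or more erythroid UMIs and 9.77% had 3 or more endothelial UMIs, where the medians over 15 libraries were 24.0% and 1.51%. The marker lists can hold genes that muscle cells make too, such as Tbx20 among the valve interstitial markers. The counts therefore do not measure other cells alone.

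The 6 label markers were high in members in each of the 15 libraries. Levels are given as CPM, a gene's UMIs over the UMIs summed in that class and library and scaled as usual, and since the assay counts 1 tag per transcript they are not divided by length. Myl2, the ventricular regulatory light chain of myosin, lay between 7920 and 12837 CPM (median 11214) in compact-type cells and between 115 and 397 CPM (median 176) in atrial cells. Myl3, the ventricular essential light chain, lay between 7899 and 12506 CPM (median 9546) in compact-type cells, against 258 to 995 CPM (median 543) in atrial cells. Both belong to the gates, as do Mb (myoglobin, the oxygen store of muscle; median 2128 against 56.3 CPM) and Ckm (the muscle creatine kinase, which buffers ATP; median 828 against 194 CPM), so these gaps follow from the choice of cells. The 2 label markers outside the gates were high too. Myh7, the slow or beta myosin heavy chain, had 3441 to 10273 CPM (median 6502) in compact-type cells and 118 to 408 CPM (median 218) in atrial cells. Pln, phospholamban, the inhibitor of the sarcoplasmic calcium pump, had 2040 to 3030 CPM (median 2427) in compact-type cells and 270 to 485 CPM (median 375) in atrial cells. For none of the 6 did the ranges of the classes meet, apart from Ckm, where the lowest compact-type library (440 CPM) lay under the highest atrial one (519 CPM).

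**Figure D1:**
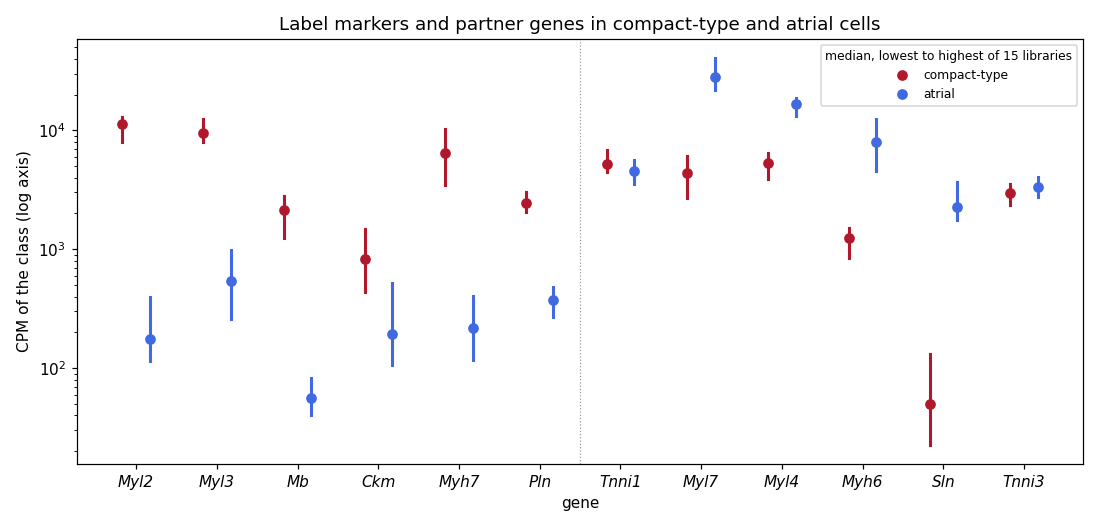
The plot shows the level of 12 genes in compact-type (left, red) and atrial cells (right, blue), in CPM of the class on a log axis; points are medians and bars run from the lowest to the highest of 15 libraries. The 6 label markers left of the dotted line are higher in compact-type cells, Myl7, Myl4, Myh6 and Sln are higher in atrial cells, and the troponin I genes Tnni1 and Tnni3 are near each other in both.

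A low level of ventricular transcripts was found in atrial cells as well. At least 1 Myl2 UMI was seen in 98.2% of 7463 compact-type cells (median depth 954 UMIs) and in 35.1% of 2393 atrial cells (median depth 2166). After thinning to 1000 UMIs the shares were 97.3% of 3572 and 16.4% of 1782 cells. Myh7 UMIs were in 91.0% of compact-type and 34.5% of atrial cells, or 94.5% and 17.6% after thinning. Hey2 UMIs were in 13.5% of compact-type and 1.00% of atrial cells, or 9.77% and 0.505% after thinning, so a cell without a Hey2 UMI is not shown to lack the transcript.

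Atrial forms of contractile genes were lower in compact-type cells, and the troponin I genes stood near 0. Log2 ratios of compact-type over atrial CPM, each with 5 CPM added and averaged over the 15 libraries, were -2.88 ± 0.23 (SD, n = 15) for Myl7, the atrial regulatory light chain, and -1.59 ± 0.13 for Myl4, the atrial essential light chain. Myh6, the fast or alpha heavy chain, stood at -2.78 ± 0.23 and Sln, sarcolipin, the pump inhibitor of atrial muscle, at -5.19 ± 0.67. Tnni1, the fetal troponin I, stood at 0.26 ± 0.06 and Tnni3, the adult cardiac form, at -0.21 ± 0.11. Sln, Myl7, Myl4 and Tnni1 are gate genes, so of these 6 only Myh6 and Tnni3 lie outside the rule. Ratios in this contrast describe cells that were sorted by their transcripts, and carry no test.

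Promoter sequences of the ventricular Myl3 and the atrial Myl7 are shown. These light chains, an essential and a regulatory one, have opposite chamber levels, and their promoters hold the same kinds of muscle motif. The windows run from 250 bases before to 50 after the transcript start in the RefSeq annotation of GRCm38.p6, at chr9:110763428-110763727 on the plus strand for Myl3 and chr11:5898733-5899032 on the minus strand for Myl7, each printed 5′ to 3′ on its gene's strand; positions count the start as 0. Capitals mark the CArG box, the binding motif of serum response factor, and the M-CAT motif CATTCC of the TEAD factors in either orientation.
Myl3: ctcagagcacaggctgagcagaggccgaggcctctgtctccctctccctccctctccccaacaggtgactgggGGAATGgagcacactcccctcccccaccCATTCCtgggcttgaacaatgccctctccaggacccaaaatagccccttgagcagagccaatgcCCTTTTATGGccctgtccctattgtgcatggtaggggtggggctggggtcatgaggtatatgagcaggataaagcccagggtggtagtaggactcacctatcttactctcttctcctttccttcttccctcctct
Myl7: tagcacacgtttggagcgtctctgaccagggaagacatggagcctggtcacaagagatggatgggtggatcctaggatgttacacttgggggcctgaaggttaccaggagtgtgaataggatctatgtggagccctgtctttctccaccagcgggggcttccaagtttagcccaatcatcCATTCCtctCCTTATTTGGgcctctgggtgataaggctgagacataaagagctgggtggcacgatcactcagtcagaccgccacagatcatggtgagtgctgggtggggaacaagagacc
The CArG box lay at -85 to -76 from the start in Myl3 and at -61 to -52 in Myl7. The windows of Myl2, the ventricular regulatory light chain and so the counterpart of Myl7, held neither motif. They end at chr5:122093238, well before the gene's listed start at chr5:122100951 on the plus strand. Sequence at that start was therefore not searched, and Myl2 and Myl7 cannot be compared by these windows. A CArG box on either strand was found in 535 of 32851 such windows (1.63%) and M-CAT in 4817 (14.7%). A match is a description of the letters and not evidence of a bound site.

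Beyond the gates, compact-type cells differed from atrial cells in regulators, channels and secreted factors. Among 1855 genes outside the gates with at least 100 CPM in either class, 466 had the same sign in every library, 289 higher and 177 lower in compact-type cells. At least 2-fold higher with 1 sign in 15 libraries were 51 genes (2.75% of the 1855), and at least 2-fold lower 66 (3.56%). Among genes higher in compact-type cells, the next after Myh7 (4.87 ± 0.44) was Kcne1, the accessory subunit of the slow delayed rectifier potassium channel, at 4.09 ± 0.60: it had 293 to 446 CPM in compact-type and 5.23 to 70.3 CPM in atrial cells. Hey2, the transcriptional repressor of the compact layer, followed at 3.84 ± 0.79, with 57.3 to 154 CPM in compact-type and 0 to 14.6 CPM in atrial cells. Next stood Ddc, which makes dopamine and serotonin and is imprinted in the developing mouse heart, at 3.30 ± 0.51. For each of these 3 genes the ranges of the classes did not meet.

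The remaining genes of the upper 12 were Pln (2.74), Lbh (2.46), a transcriptional cofactor of limb and heart, Loxl2 (2.28), a lysyl oxidase that crosslinks collagen, the septin Sept6 (2.18), Slc25a13 (2.01), the mitochondrial aspartate and glutamate carrier, the lipid transfer gene Osbpl8 (1.87), the adaptor Sh3kbp1 (1.78) and the chemokine Cxcl12 (1.78). Cxcl12 was the most uneven of them by SD (0.86), with log2 ratios from 0.31 to 2.69 over the libraries. Slc25a13 had a slightly wider range, from 0.71 to 3.13. The list of 20 regulators of the ventricular wall had no common direction: over its 10 genes above 100 CPM the median was -0.03, with Hey2 at least 2-fold higher and Tbx5 at least 2-fold lower in each library. Below that level Irx4, Prdm16, Hand1 and Mycn, singled out after their values were seen, were higher in 15 of 15 libraries, Gata4 was higher in 14, Irx5 in 13 and Nkx2-5 in 3. Irx4, a ventricular homeobox repressor of atrial genes, had 42.8 ± 8.79 CPM in compact-type and 1.90 ± 2.20 CPM in atrial cells (SD, n = 15). Prdm16, a regulator of compact muscle, had 23.1 ± 6.54 CPM against 1.83 ± 1.62 in atrial cells. Hand1, the left-ventricular basic helix-loop-helix factor, had 17.4 ± 6.00 CPM against 0.807 ± 1.56, and Mycn, which drives proliferation of compact muscle, 52.4 ± 10.2 CPM against 12.4 ± 5.82. The chamber-shared regulators Tbx20 (0.14 ± 0.21), Mef2c (-0.24 ± 0.31) and Nkx2-5 (-0.22 ± 0.39) stood near 0.

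Genes lower in compact-type cells were led by Nppa, the precursor of atrial natriuretic peptide. It had 279 to 1260 CPM (median 601) in compact-type cells and 8345 to 25084 CPM (median 14077) in atrial cells, a log2 ratio of -4.54 ± 0.59. Gm13054 (-3.43), which lies on the minus strand across the end of Nppa, cannot be told apart from it unless counting used strand, on which the labels are silent; the antisense gene Gm15543 (-2.92) is uncertain for the same reason. The growth factor homologue Fgf12, a modulator of sodium channels, stood at -4.40 ± 0.50, the urotensin-related peptide gene Uts2b at -4.23 ± 0.59 and Shox2, the homeobox factor of the sinus node region, at -3.58 ± 0.75. Cav1 (-3.38), the coat protein of caveolae, Stard10 (-3.29), Ifltd1 (-3.05), Nr2f2 (-2.95), the nuclear receptor that sets atrial identity, and the laminin receptor Itga6 (-2.82) completed the lower 12 with Myh6. The septal factor Tbx5 stood at -2.33 ± 0.28, with 60.2 ± 15.4 CPM in compact-type and 319 ± 57.9 CPM in atrial cells.

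**Figure D2:**
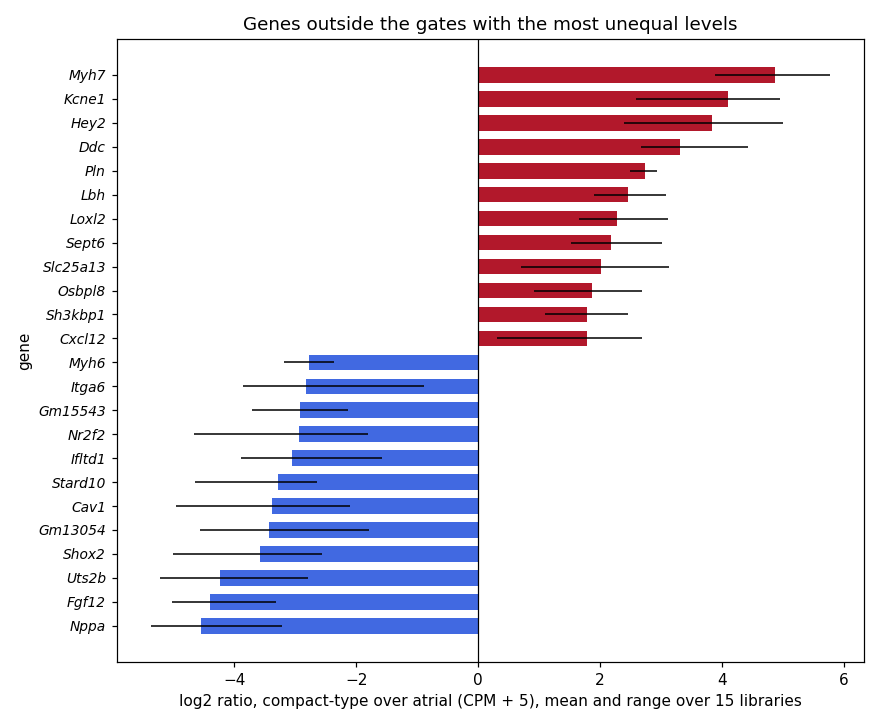
Bars give the mean log2 ratio of compact-type over atrial CPM (5 CPM added) for the 12 genes furthest to either side outside the gates, and black lines run from the lowest to the highest of 15 libraries. All 24 lines stay on 1 side of 0, from 4.87 for Myh7 to -4.54 for Nppa.

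Taken by gene list, glycolysis was somewhat higher in compact-type cells, while other lists of energy metabolism lay closer to the median of all genes. Contractile lists had medians near 0 with members that differed either way. The median log2 ratio over all 1855 genes was 0.10, and over 13 genes of the energy shuttle and oxygen list it was 0.11. It was 0.21 over 52 nuclear-encoded subunits of the respiratory chain, 0.24 over 16 genes of fatty acid oxidation and 0.56 over 14 of glycolysis, and 0 genes of the first 2 of these lists and 1 of glycolysis reached 2-fold in every library. It was -0.08 over 8 thick filament genes (1 higher and 2 lower by 2-fold in every library), -0.18 over 14 thin filament genes (3 and 1), -0.10 over 15 Z disc genes (0 and 0) and -0.14 over 15 genes of calcium cycling (1 and 1). Within calcium cycling the direction was mixed: Pln was high in compact-type cells, while the pump Atp2a2 (-0.97 ± 0.26), the store protein Casq2 (-0.61 ± 0.25) and the release channel Ryr2 (-0.70 ± 0.25) were lower in 15 of 15 libraries. Gja1, the main connexin of working ventricular muscle, stood at 0.91 ± 0.42, with 411 ± 83.8 CPM in compact-type and 217 ± 40.5 CPM in atrial cells.

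Across the limits of the rule, levels of genes the limits do not use differed to unequal degrees. The 167 members with exactly 3 ventricular UMIs had 1640 CPM of Myh7 and 2500 CPM of Nppa, and the 173 cells with 2 had 1222 and 3584 CPM. The 2220 members with 1 trabecular UMI had 6771 CPM of Myh7, and the 1114 cells with 2 had 6757 CPM; their Nppa was 869 and 1284 CPM. The 911 members with 2 mitotic UMIs had 6374 CPM of Myh7, and the 631 cells with 3 had 5261 CPM. By contractile share, the 546 members between 2 and 3% had 4453 CPM of Myh7 and the 341 cells between 1 and 2% had 1914 CPM. The trabecular limit thus cuts through cells of nearly equal Myh7, while Myh7 differed more across the contractile limit, and both sides of the ventricular limit were poor in it.

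Adamts19 transcripts were scarce in compact-type cells of all KO hearts, and the KO and WT libraries did not overlap. The gene (ENSMUSG00000053441) lies at chr18:58836667-59054060 on the plus strand of GRCm38. Its UMIs in members were 3, 2, 1, 5, 1, 0, 2 and 0 in KO replicates 1 to 8 and 38, 32, 34, 6, 14, 7 and 11 in WT replicates 1 to 7. That is 2.29 ± 2.56 CPM in KO (n = 8) and 22.3 ± 8.52 CPM in WT libraries (SD, n = 7; two-sided exact permutation p = 0.000311, the smallest the design allows). The gene was too low for the filter on low counts; without that filter the log2 change was -3.28 (SE 0.39, edgeR adjusted p = 7.75e-07). Atrial cells showed the same order, with 8.88 ± 4.92 CPM in KO and 37.4 ± 17.7 CPM in WT libraries. The tags are from the 3′ end, so a deletion elsewhere in the gene would not be checked by them. LacZ, the reporter carried by many targeted alleles, had 41, 16, 70, 1, 7, 4, 7 and 5 UMIs in members of KO replicates 1 to 8 and no UMI in WT members, where a count of 0 allows 0.523 CPM over the group.

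The share of compact-type cells did not differ between KO and WT hearts past the threshold. They were 14.4% ± 2.45 of kept cells in KO libraries (10.4 to 17.4%, n = 8) and 14.8% ± 2.82 in WT libraries (9.55 to 18.0%, n = 7; exact permutation p = 0.802). Among muscle cells they were 31.1% ± 2.57 in KO and 31.3% ± 5.79 in WT libraries (exact permutation p = 0.954). The median depth of a member was 920 ± 87.3 UMIs in KO and 997 ± 196 UMIs in WT libraries (exact permutation p = 0.338). Of members thinned to 1000 UMIs, 28.4% ± 4.43 in KO and 28.7% ± 4.72 in WT libraries had 2 or more UMIs of 24 DNA replication genes (exact permutation p = 0.883), against 18.5% and 19.1% of atrial cells. The adjusted p was 0.954 for each of these 4 exact permutation tests. Depth splits the WT libraries: without WT replicates 1 to 4, a choice made after the data were seen, the KO median lay 108 UMIs above WT (exact permutation p = 0.0485, unadjusted). A p that misses the threshold does not show that the shares are equal.

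**Figure D3:**
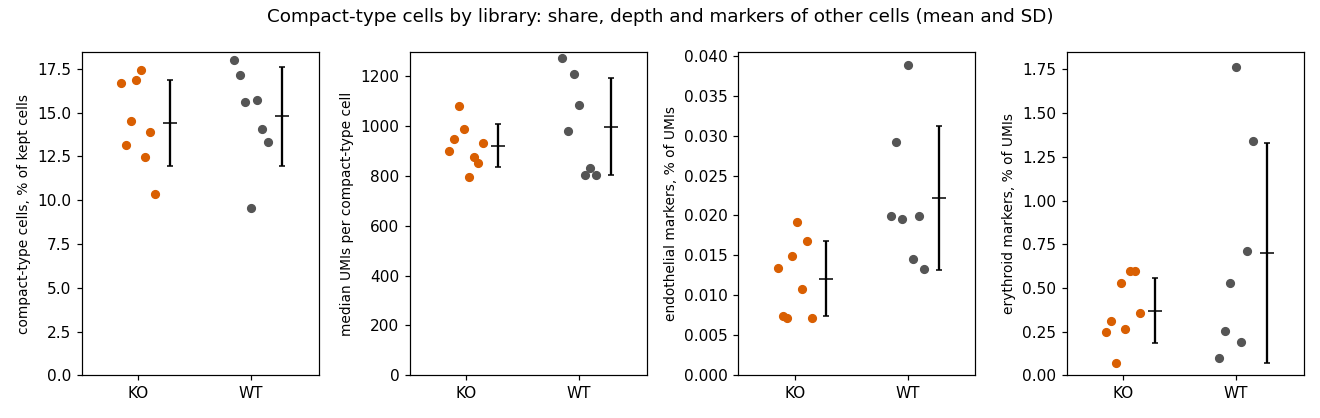
Each point is a library, KO (orange) left of WT (grey), with mean and SD in black; the panels give the compact-type share of kept cells, the median UMIs per member, and the share of members' UMIs from endothelial and from erythroid markers. Share and depth overlap between the genotypes, and WT replicate 4 holds the highest value of both marker shares (0.0388% and 1.76%).

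Between KO and WT hearts, 24 genes differed in compact-type cells. Among them Atf4, Hspa5 and Ddit4, known from the cell's response to stress, were higher in KO by 0.69 to 1.16 on the log2 scale, and Plxnd1, Cd93, Tm4sf1 and Eng, known from vessel lining, were lower, as was Nppa. The edgeR quasi-likelihood test with Benjamini-Hochberg adjustment called 24 genes, 0.311% of the 7726 it tested; 12 of them (0.155%) had a higher and 12 (0.155%) a lower level in KO. In 9 of the 24 the KO and WT libraries did not overlap, and over all genes tested 24 did not overlap (0.311%). The count was 78 without WT replicate 3, 9 without WT replicate 2, 14 without KO replicate 1, 6 or 8 and 15 without KO replicate 7. With the flow cell as a covariate edgeR called 0 genes, 516 having an unadjusted p under 0.05, and with counts summed per litter, which leaves 3 KO and 4 WT sums, it called 4, 2 of them among the 24. Without WT replicates 1 to 4, a choice made with earlier results known, 185 genes were called, 16 of the 24 among them. The contractile genes that define the cells were not among the 24.

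Atf4, Hspa5, Ddit4 and Ier3 rose together in KO. Atf4, the transcription factor of the integrated stress response, had 340 to 466 CPM (median 401) in KO and 169 to 341 CPM (median 251) in WT libraries. WT replicate 3, at 341 CPM, was the only WT library to reach the lowest KO one. The log2 change was 0.70 (SE 0.12, edgeR adjusted p = 0.00923). Hspa5, the chaperone BiP of the endoplasmic reticulum, had 1179 to 1961 CPM (median 1553) in KO and 814 to 1157 CPM (median 984) in WT libraries, with no overlap, a log2 change of 0.69 (SE 0.13, edgeR adjusted p = 0.0177). Ier3, an immediate early gene linked to cell survival, had 271 to 408 CPM (median 335) in KO and 150 to 234 CPM (median 187) in WT libraries, with no overlap, a change of 0.76 (SE 0.13, edgeR adjusted p = 0.00923). Ddit4, an inhibitor of the growth kinase mTOR that ATF4 is known to induce, had 26.0 to 95.4 CPM (median 59.9) in KO and 14.1 to 51.9 CPM (median 23.2) in WT libraries, which overlapped, a change of 1.16 (SE 0.24, edgeR adjusted p = 0.0284). Atf4, Hspa5 and Ier3 passed in each of the 15 fits that left out 1 library, and Ddit4 in 7.

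Around these genes, a list of 20 genes of the ATF4 and endoplasmic reticulum response was put together after the values were seen and is a description only. Of its 16 tested genes, 3 were called, all higher (0.155% of all genes were), 14 had a positive log2 change, and the median was 0.42 where that of all tested genes was -0.02. Near the threshold were Ddit3, the transcription factor CHOP, with 162 ± 30.3 CPM in KO and 95.2 ± 36.7 CPM in WT libraries (n = 8 and 7; log2 0.74, edgeR adjusted p = 0.0584), and Hsp90b1, the chaperone GRP94, with 1410 ± 196 CPM in KO and 991 ± 179 CPM in WT libraries (log2 0.51, edgeR adjusted p = 0.0746). Among 25 tested immediate early and heat shock genes Ier3 alone was called. There 21 changes were positive with a median of 0.15, and 7 were higher and 1 lower at an unadjusted p under 0.05. Immediate early genes respond to dissociation of tissue; that part in the result was not tested.

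The promoter of Hspa5 is shown because it holds the classic element of the endoplasmic reticulum stress response, ERSE, spelled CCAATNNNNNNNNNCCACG and searched on both strands. The window is chr2:34771840-34772139 on the plus strand of GRCm38.p6, from RefSeq, with the element in capitals at -65 to -47 from the start.
Hspa5: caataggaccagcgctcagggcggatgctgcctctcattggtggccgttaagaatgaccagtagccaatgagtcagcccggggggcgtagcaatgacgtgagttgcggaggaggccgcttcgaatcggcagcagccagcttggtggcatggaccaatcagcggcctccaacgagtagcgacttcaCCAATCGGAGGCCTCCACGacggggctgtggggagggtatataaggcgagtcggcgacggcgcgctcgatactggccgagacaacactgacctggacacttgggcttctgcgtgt
ERSE was found in 39 of 32851 promoter windows (0.119%). Of the 24 called genes 18 had a window, and Hspa5 was the 1 with an ERSE. The composite element of C/EBP and ATF proteins, TGATGNAA, was in 0 of the 18 and in 3.97% of all windows, which says only that these letters are not in these windows.

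The other 8 genes that rose in KO were mt-Nd5, mt-Ty, Pcna, Bcr, Dot1l, Pcgf5, Tra2a and 5430416N02Rik. mt-Nd5, a mitochondrially encoded subunit of respiratory complex I, had 2207 to 5047 CPM (median 3819) in KO and 1810 to 3198 CPM (median 2188) in WT libraries, a log2 change of 0.66 (SE 0.15, edgeR adjusted p = 0.0456). KO replicate 4, the lowest KO library at 2207 CPM, lay among the WT libraries, and the highest WT one (3198 CPM) was under the other 7 KO libraries. mt-Ty, a mitochondrial transfer RNA gene, had 15.9 to 90.9 CPM in KO and 0.896 to 24.8 CPM in WT libraries (log2 1.90, SE 0.38, edgeR adjusted p = 0.0229). Its libraries overlapped. The other 8 tested mitochondrially encoded genes on the list were not called, and 6 of the 9 had a positive change.

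Pcna, the sliding clamp of DNA polymerases, had 126 to 198 CPM (median 147) in KO and 73.5 to 120 CPM (median 99.6) in WT libraries, with no overlap, a log2 change of 0.65 (SE 0.15, edgeR adjusted p = 0.0456). It was the 1 gene called of 24 DNA replication genes, whose median change was 0.04, and it was also 1 of the 24 genes behind the replicating share above. Bcr had 45.6 to 99.97 CPM in KO and 15.9 to 43.6 CPM in WT libraries, with no overlap (log2 0.99, SE 0.20, edgeR adjusted p = 0.0264). Dot1l, the histone H3 lysine methyltransferase, changed by 0.81 (SE 0.18, edgeR adjusted p = 0.0456) and Pcgf5, a Polycomb subunit, by 0.79 (SE 0.18, edgeR adjusted p = 0.0456). Tra2a, a splicing factor, had 204 ± 20.3 CPM in KO and 132 ± 35.8 CPM in WT libraries (log2 0.61, SE 0.13, edgeR adjusted p = 0.0276), and the long noncoding 5430416N02Rik 61.0 ± 19.2 CPM in KO and 29.5 ± 8.44 CPM in WT libraries (log2 0.99, edgeR adjusted p = 0.0264). These last 4 overlapped between the groups. Under removal of 1 library at a time, mt-Nd5 passed in 2 of 15 fits, Dot1l in 3, Pcgf5 and Pcna in 4, Tra2a in 7, Bcr in 9, 5430416N02Rik in 11 and mt-Ty in 14.

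**Figure D4:**
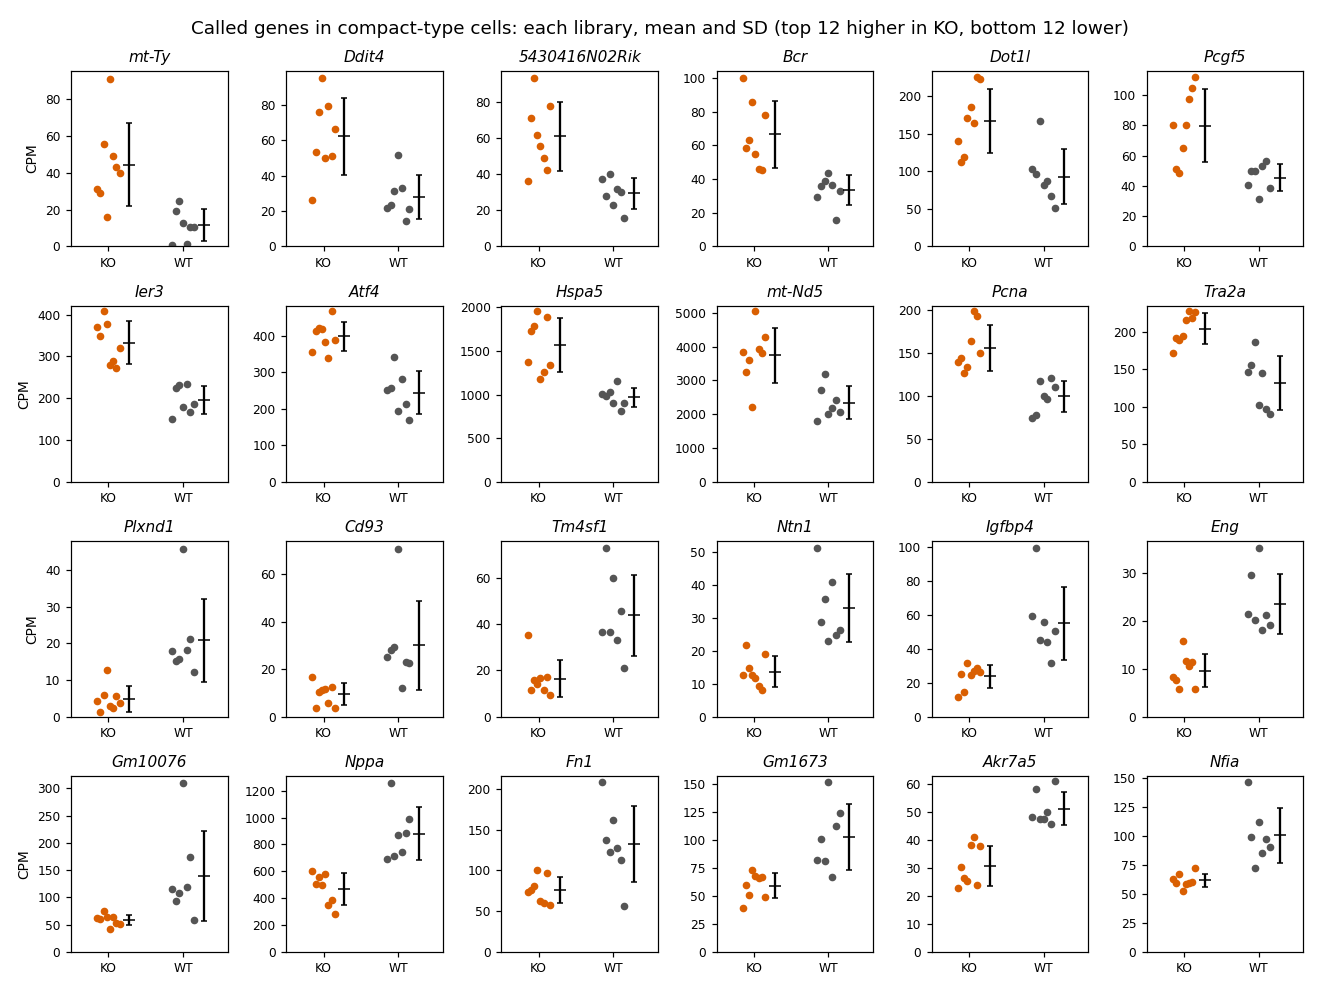
Each panel is 1 of the 24 called genes; points are libraries, KO (orange) left of WT (grey), in CPM of compact-type cells from 0, with mean and SD in black. The top 12 panels are higher and the bottom 12 lower in KO; Ier3, Hspa5, Bcr, Pcna, Ntn1, Eng, Nppa, Akr7a5 and Nfia do not overlap.

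The 3 largest falls in KO, those of Plxnd1, Cd93 and Tm4sf1, and that of Eng were in genes known from the lining of blood vessels. Plxnd1, the semaphorin receptor of endothelium, had 1.27 to 12.7 CPM (median 3.98) in KO and 12.2 to 45.7 CPM (median 17.9) in WT libraries, a log2 change of -2.06 (SE 0.36, edgeR adjusted p = 0.00923). Members held 526954 to 1023160 UMIs in a KO library, so KO levels this low rest on few UMIs each. Cd93, an endothelial surface lectin, stood at -1.56 (SE 0.33, edgeR adjusted p = 0.0276), with 9.47 ± 4.58 CPM in KO and 30.1 ± 18.7 CPM in WT libraries. Tm4sf1, a tetraspanin-like protein of endothelium, stood at -1.36 (SE 0.26, edgeR adjusted p = 0.0187), with 16.5 ± 8.11 CPM in KO and 43.8 ± 17.5 CPM in WT libraries. Eng, the endothelial co-receptor of TGF-beta, had 5.69 to 15.9 CPM in KO and 18.2 to 35.3 CPM in WT libraries, with no overlap (log2 -1.26, SE 0.24, edgeR adjusted p = 0.0177). The 3 others overlapped through KO replicate 4 for Plxnd1, KO replicate 1 for Tm4sf1, and KO replicates 1 and 7 for Cd93.

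The listed markers of endothelium were also at lower levels in KO, none of them past the threshold. Of 11 listed endothelial markers 7 were tested, none was called, all 7 had a negative change with a median log2 change of -0.87 (all genes -0.02), and 6 had an unadjusted p under 0.05. Their summed share of members' UMIs was 0.0121% ± 0.00469 in KO (0.00717 to 0.0192%) and 0.0222% ± 0.00895 in WT libraries (0.0133 to 0.0388%). Members with 3 or more of these UMIs made up 1.10% ± 0.836 in KO and 3.73% ± 2.85 in WT libraries. When every cell with an endothelial marker UMI was left out, 6234 members remained, 11 genes were called, 10 of them among the 24, and Plxnd1, Cd93, Tm4sf1 and Eng no longer had enough counts to be tested. Without every member that had 3 or more UMIs of any other cell type's markers, 3 of 2990 tested genes were called. With erythroid markers not counted, 1 of 4375 was called, and Atf4 stood there at 0.68 (edgeR adjusted p = 0.0542). The main fit tested 7726 genes, and these cuts left 12 and 92 members in WT replicate 4. An absolute count is reached more often by deeper cells, and its part in the drop was not tested. Fibroblast markers (6 tested, median log2 change -0.59, 4 at an unadjusted p under 0.05) and valve interstitial markers (5 tested, -0.40, 3 at an unadjusted p under 0.05) all had negative changes as well with 0 called, and so did 6 erythroid markers (-1.21, 4 at an unadjusted p under 0.05) and 1 macrophage marker (-0.24). Epicardial markers (3 tested, 0.30, 1 higher at an unadjusted p under 0.05) and mural markers (3 tested, 0.19, 1 lower at an unadjusted p under 0.05) had positive medians with 0 called by edgeR. The erythroid share of members' UMIs was 0.371% ± 0.188 in KO and 0.699% ± 0.631 in WT libraries. Fewer cells of another type, or less of their RNA, and a lower level in the muscle cells themselves cannot be told apart in such sums. The valve interstitial list includes Tbx20, which had 280 ± 65.9 CPM in members and 260 ± 101 CPM in atrial cells (SD, n = 15).

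Nppa fell in compact-type cells of KO hearts. It had 279 to 601 CPM (median 500.1) in KO and 695 to 1260 CPM (median 872) in WT libraries. No KO library reached the lowest WT one, and the log2 change was -0.92 (SE 0.17, edgeR adjusted p = 0.0135), called in each of the 15 fits that left out 1 library. Nppa is a gene of atrial and trabecular muscle, and the gates removed cells by other trabecular genes; of 4 trabecular products tested outside the gates Nppa alone was called, and the median log2 change of the 4 was -0.11. With the gates applied after thinning to 1000 UMIs, chosen after the data were seen, the change was -0.56 (edgeR adjusted p = 0.15). In atrial cells, where Nppa is higher than in compact-type cells, the change was -0.26 (edgeR adjusted p = 0.688). The difference between these classes was -0.68 (edgeR adjusted p = 0.154), which is not past the threshold.

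The other 7 genes that fell were Ntn1, Igfbp4, Fn1, Nfia, Akr7a5, Gm10076 and Gm1673. Ntn1, the guidance cue netrin 1, had 7.98 to 21.6 CPM in KO and 22.8 to 51.1 CPM in WT libraries, with no overlap (log2 -1.31, SE 0.23, edgeR adjusted p = 0.00923). Igfbp4, an insulin-like growth factor binding protein, had 11.5 to 31.8 CPM in KO and 31.8 to 99.2 CPM in WT libraries, where the highest KO and the lowest WT library met (log2 -1.26, SE 0.22, edgeR adjusted p = 0.00923). Fn1, fibronectin, had 75.9 ± 16.3 CPM in KO and 132 ± 46.5 CPM in WT libraries (log2 -0.81, SE 0.18, edgeR adjusted p = 0.0456). Nfia, a transcription factor of the nuclear factor I family, had 52.5 to 72.1 CPM in KO and 72.5 to 147 CPM in WT libraries (log2 -0.72, SE 0.14, edgeR adjusted p = 0.0204), and Akr7a5, an aldehyde reductase, 22.9 to 41.0 CPM in KO and 45.9 to 61.1 CPM in WT libraries (log2 -0.75, SE 0.16, edgeR adjusted p = 0.0456); neither overlapped between the groups. The predicted genes Gm10076 (-1.24) and Gm1673 (-0.79) also fell, and their counts are uncertain since such models can share reads with near copies. Leaving out single libraries, Ntn1, Igfbp4, Nfia and Gm10076 were called every time, Plxnd1 in the 7 fits that tested it, Tm4sf1 and Eng in 14 of 15, Cd93 in 10 of 14, Gm1673 and Akr7a5 in 4 of 15 and Fn1 in 3. With the gates applied after thinning, 44 genes were called and 18 of the 24 among them. Besides Nppa, the calls of Cd93 (edgeR adjusted p = 0.0582), Tm4sf1 (0.271), Ntn1 (0.0718), Eng (0.14) and Nfia (0.0768) were lost. Of the 12 genes lower in KO, 11 had a smaller absolute change after thinning than in the main fit, and 10 had with litter sums.

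None of the 6 label markers passed the threshold in the main fit. These are ventricular markers, and Myh7 and Pln did not separate members from cells just past the trabecular limit. Members with 1 trabecular UMI had 6771 CPM of Myh7 and 2634 CPM of Pln. Cells with 2 had 6757 and 2625 CPM. Myh7 had 4920 to 8680 CPM in KO and 3441 to 10273 CPM in WT libraries (log2 0.04, SE 0.17, edgeR adjusted p = 0.947), and Pln 2098 to 2819 CPM in KO and 2040 to 3030 CPM in WT libraries (log2 0.00, SE 0.12, edgeR adjusted p = 0.996). The 4 gate genes Myl2 (0.06), Myl3 (-0.13), Mb (0.25) and Ckm (-0.44) are held in place in part by the rule, which used the same counts. For Ckm the edgeR adjusted p was 0.308, and without WT replicates 1 to 4 the change was -0.74 (edgeR adjusted p = 0.0131). Since the rule bears on these 4 genes, their values are a description and not calls. Of 17 thick filament, 18 thin filament, 21 Z disc and 12 intercalated disc genes tested, 0 were called in either direction, and 1, 3, 1 and 0 were higher and 0, 0, 2 and 1 lower at an unadjusted p under 0.05. DESeq2 called Tnnt1, slow troponin T, higher in KO (log2 0.38 and adjusted p = 0.143 in edgeR, adjusted p = 0.0112 in DESeq2), with 2319 ± 351 CPM in KO and 1767 ± 204 CPM in WT libraries. Of 22 calcium cycling genes 0 were called by edgeR, 16 had a negative change and 1 was higher and 4 lower at an unadjusted p under 0.05, the lowest p being that of the inositol trisphosphate receptor Itpr2 (-0.67, edgeR adjusted p = 0.188). Of 17 regulators of the ventricular wall 0 were called by edgeR, 1 higher and 2 lower at an unadjusted p under 0.05, and Tead1, a mediator of Hippo signalling, stood lowest in p (-0.60, edgeR adjusted p = 0.109, DESeq2 adjusted p = 0.0495); WT replicate 1 alone had 306 CPM of it.

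Metabolic and growth lists held no called gene outside those named. Of 53 nuclear-encoded respiratory chain genes 44 had a negative log2 change in KO with a median of -0.13, where 4078 of all 7726 genes were negative. None of the 53 was called by edgeR, and 7 were lower and 0 higher at an unadjusted p under 0.05; Cox5a, a subunit of cytochrome oxidase, stood at -0.55 (edgeR adjusted p = 0.131) and Uqcrfs1, the Rieske iron-sulphur protein, at -0.61 (edgeR adjusted p = 0.143). Fatty acid oxidation (22 tested, median -0.06) and glycolysis (20 tested, -0.05) had 0 called by edgeR, with 1 higher and 1 lower and 0 either way at an unadjusted p under 0.05. Of 16 cell cycle regulators 0 were called by edgeR, 4 being higher and 3 lower at an unadjusted p under 0.05; Btg2 (0.52, edgeR adjusted p = 0.191) and Cdkn1a (0.50, edgeR adjusted p = 0.207), both brakes on division, had the smallest p. Of 14 imprinted growth genes 0 were called by edgeR, 1 being higher and 5 lower at an unadjusted p under 0.05, with Plagl1 at -0.54 (edgeR adjusted p = 0.109) and Mest at -0.52 (edgeR adjusted p = 0.113), which DESeq2 called (adjusted p = 0.045 and 0.0411). Of 15 genes of the contact between muscle cell and matrix 0 were called by edgeR, 6 being lower at an unadjusted p under 0.05; the basement membrane genes Col18a1 (-0.93, edgeR adjusted p = 0.0754) and Agrn (-0.77, edgeR adjusted p = 0.0872) had the smallest p, and both were called by DESeq2 (adjusted p = 0.0202 and 0.0411). Among 16 growth factor and receptor genes 12 had a negative change, 0 were called by edgeR and 4 were lower at an unadjusted p under 0.05. Among 12 load response genes 11 had a positive change and Nppa, called lower, was the exception.

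The flow cell and the genotype can hardly be told apart, since the labels put the 8 KO libraries and WT replicate 5 on 1 flow cell and the other 6 WT libraries elsewhere. In the fit with the flow cell as a covariate, which called none of them, each of the 24 kept its sign. Of the 12 genes lower in KO, 11 had a smaller absolute change there than in the main fit. Against WT replicate 5, the sole WT library of that flow cell, all 8 KO libraries lay on the called side for 19 of the 24 genes; the exceptions were Ddit4, Pcgf5, Cd93, Tm4sf1 and Gm1673, with 5 to 7 of the 8. These genes were chosen for a difference between the same KO and WT libraries. Both the covariate fit and this comparison rest on 1 WT library, and no share over all 7726 tested genes is given. Neither the signs nor the counts therefore separate genotype from flow cell. Hspa5 had 1157 CPM in WT replicate 5 and at least 1179 CPM in each KO library there, and Nppa 743 CPM in WT replicate 5 and at most 601 CPM in each KO library. The covariate moved 5 of the 24 changes by over 1.5 times: Gm1673 stood at -0.16 (SE 0.35), Cd93 at -0.29 (SE 0.71), Nfia at -0.45 (SE 0.29), Hspa5 at 0.45 (SE 0.27) and mt-Ty at 4.77 (SE 1.32).

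**Figure D5:**
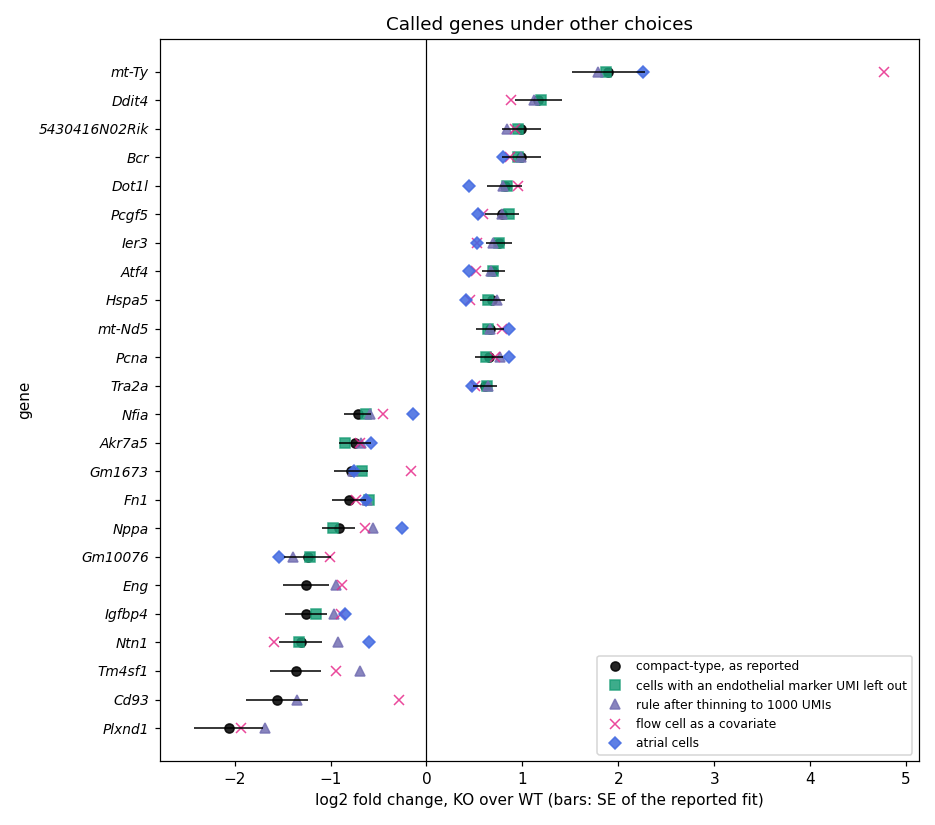
For each of the 24 called genes the log2 fold change of KO over WT is given for compact-type cells as reported (black, with SE), without cells that hold an endothelial marker UMI, with the gates applied after thinning, with flow cell as a covariate, and in atrial cells; a missing symbol means too few counts for that fit. All symbols of a gene lie on the same side of 0, and Gm1673, Cd93 and Nppa move closest to it, the last in atrial cells, as does Nfia.

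In atrial cells of the same hearts edgeR called 25 genes, 0.44% of the 5679 tested, 15 with a higher and 10 with a lower level in KO. The count was 0 with flow cell as a covariate (440 at an unadjusted p under 0.05), 5 with litter sums, 81 without WT replicate 3, and 7 to 15 without KO replicate 1, 5, 6, 7 or 8 or WT replicate 2, 5, 6 or 7. Of the 24 genes called in compact-type cells 18 were tested there and 4 were called, namely mt-Ty (2.26), mt-Nd5 (0.86), Pcna (0.86) and Gm10076 (-1.53). The difference in KO effect between the classes was tested in 1 fit with each library as a block, and 2 of 7688 genes (0.026%) passed. The count was 0 without WT replicates 1 to 4 (477 at an unadjusted p under 0.05) or without cells of other markers (89), and 1 to 5 leaving out single libraries. Myl2 is a gene of the gates that sort the cells into both classes, so its difference of 0.87 (SE 0.15, edgeR adjusted p = 0.00315) is a description: it stood at 0.06 in compact-type cells and at -0.81 in atrial cells, where it had 151 ± 40.1 CPM in KO and 268 ± 72.8 CPM in WT libraries. Its level in atrial cells is far under that of compact-type cells. The uncharacterised 2310050B05Rik differed by 0.61 (edgeR adjusted p = 0.0458), with 0.21 in compact-type and -0.40 in atrial cells. For the stress genes Atf4 (0.44 in atrial cells) and Hspa5 (0.42) the difference between the classes was 0.25 (edgeR adjusted p = 0.865) and 0.24 (edgeR adjusted p = 0.836).

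Within the KO hearts the alleles, which are also litters, differed in many genes. Between the 4 tm4b and the 4 tm4a libraries 422 of 7761 genes (5.44%) were called in compact-type cells, 208 higher and 214 lower in tm4b. The count was 143 to 272 without KO replicate 1, 2, 3, 5, 6, 7 or 8, lowest without KO replicate 7, and 536 without KO replicate 4. They were led by Rps18, a ribosomal protein of the small subunit, with 586 ± 65.7 CPM in tm4b and 989 ± 36.8 CPM in tm4a libraries (log2 -0.84, SE 0.10, edgeR adjusted p = 8.31e-05). Next in p came the glycolytic aldolase Aldoa (-0.65), the ribosomal Rps19 (-0.57), the ATP synthase subunit Atp5j (-0.59), the actin-binding thymosin Tmsb10 (-0.81) and the histone deacetylase Hdac2 (0.92). The tm4b libraries are of litter 7 and the tm4a libraries of litters 5 and 6, so allele and litter cannot be told apart. Of the genes called between KO and WT, Plxnd1, Cd93 and Eng were too low to be tested between the alleles; among the others Ier3 alone passed (log2 -0.46, edgeR adjusted p = 0.0142).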

How the data were processed

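Drop-seq UMI counts of 16809 genes in 55152 cells of 15 libraries were taken as deposited by the authors, with no normalization. The submitters' processing notes name bcl2fastq 2.17, Seurat 2.1 and mm10; no source here states the aligner or whether counting used strand. The table holds no cell annotation, so cells were classed by the gates given with the results, and the deposited cells' own filter is not stated (the lowest had 251 genes). No doublet caller was run. 0 columns belonged to no sample. WT replicate 4 was numbered by its title, from which its description differs.

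UMIs were summed per library and class, and CPM use the class's own total. Genes were tested with edgeR 4.0.16 in R 4.3.3 (quasi-likelihood, TMM scaling, filterByExpr, Benjamini-Hochberg, threshold 0.05) after a check on simulated data; the SE is the absolute log2 change divided by the root of F. Shares and depths were tested by two-sided exact permutation over libraries (scipy 1.17.1). DESeq2 1.42.0, other filters, gates and covariates were alternatives. UMI totals per library ran from 5477109 to 11340443, and limits on counts cover counting error only.

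Named genes were the label markers, the targeted gene, up to 15 called per direction, the 12 furthest ratios per direction between compact-type and atrial cells, up to 6 with a class difference, and the 2 smallest p per list. The members and lists were chosen with earlier results of these data known; the list of ATF4 and endoplasmic reticulum genes, and the genes named from it, were chosen after their values were seen.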

Additional observations from a re-analysis of the deposited data

Results flagged for a closer look

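In 138 groups of 7 or 8 libraries looked at, 15 held a library far from the others, where chance flags about 1 in 20 groups. WT replicate 4 held the high value of 4 genes: Egfl7, an endothelial secreted factor, at 62.3 CPM (other WT libraries 16.5 to 24.4), Cd93 at 70.6 CPM (12.1 to 29.4), Plxnd1 at 45.7 CPM (12.2 to 21.2) and Col18a1 at 95.5 CPM (36.6 to 59.2). The same library had the highest endothelial share of members' UMIs, 0.0388%. For Cd93 and Plxnd1 the fit without it is among those counted with these genes where they were tested, and is not given singly. Without WT replicate 4, edgeR called 23 genes, 16 of the 24 among them.

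Among KO libraries, Plxnd1 stood at 12.7 CPM in replicate 4 (others 1.27 to 5.85), and Tm4sf1 at 35.4 CPM in replicate 1 (9.49 to 17.1). Adamts19 stood at 7.95 CPM in KO replicate 4, from 5 UMIs (others 0 to 3.12), and LacZ at 102 CPM in KO replicate 3 (1.59 to 42.7). KO replicate 3 also held the lowest Dsg2, a desmosomal cadherin, at 19.01 CPM (40.7 to 53.6), and the highest Cox8b, a muscle form of a cytochrome oxidase subunit, at 469 CPM (216 to 332). Eci1, an enzyme of fatty acid oxidation, was low at 299 CPM in KO replicate 1 (376 to 443), Mest high at 599 CPM in KO replicate 5 (309 to 436) and 2310050B05Rik low at 169 CPM in KO replicate 4 (281 to 328). In WT libraries Igfbp4 was high at 99.2 CPM in replicate 2 (31.8 to 59.2) and Tead1 at 306 CPM in replicate 1 (108 to 159).

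The KO effect differed between compact-type and atrial cells for Myl2, by 0.87 on the log2 scale, and for 2310050B05Rik, by 0.61, in the fit with each library as a block. Myl2 is a gate gene of both classes, so its value is a description. Without WT replicates 1 to 4 no gene passed in edgeR (477 at an unadjusted p under 0.05), and leaving out single libraries 1 to 5 did.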

How the results depend on the processing

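The count of 24 called genes was 23 with DESeq2 size factors and 20 with at least 5 ventricular UMIs; it moved to 40 without the low-count filter, 81 with DESeq2, 0 with flow cell as a covariate, 4 with litter sums, 185 without WT replicates 1 to 4, 10 with at least 500 genes, 14 without the 5% deepest cells, 3 without cells holding 3 UMIs of other markers (1 with erythroid left out of them), 44 with thinned gates and 11 without endothelial-UMI cells, and ranged from 9 to 78 leaving out 1 library. In atrial cells 25 became 76, 84, 0 (440 at an unadjusted p under 0.05), 5 and 149 under no filter, DESeq2, flow cell, litter sums and loss of WT replicates 1 to 4, then 11 without the deepest cells, 12 and 3 without cells of other markers, 8 without endothelial-UMI cells, and 7 to 81 leaving out 1 library. The 2 class differences became 23 without the filter, 0 without WT replicates 1 to 4 (edgeR, 477 at an unadjusted p under 0.05) or without cells of other markers (89), and 1 with 5 ventricular UMIs, 500 genes, thinned gates or no endothelial-UMI cells, with 1 to 5 leaving out 1 library. The 1 class difference with thinned gates was negative, where the 2 of the main fit were positive. The allele count ranged from 143 to 536. In compact-type cells the fits without cells of other markers tested 2990 genes, or 4375 with erythroid markers not counted, against 7726 in the main fit.

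Same-numbered libraries did not deviate together (correlations -0.28 to 0.07, 0 of 7 highest with their own number), so the numbers pair nothing; the replicate block gave 1 called gene in compact-type and 2 in atrial cells.

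KO minus WT share of kept cells ranged from -1.23 to 0.22 percentage points leaving out 1 library and was 0.047 without WT replicates 1 to 4; share of muscle cells from -1.78 to 1.05, and 0.40 with 5 ventricular UMIs; replicating share from -1.58 to 0.58; median UMIs from -109 to -30.8, 108 without WT replicates 1 to 4 and 76.3 with 500 genes. Log2 changes near 0 turned sign. Myl2 stood at -0.23 without WT replicates 1 to 4 and -0.0024 without cells of non-erythroid other markers. Myh7 stood at -0.50 with flow cell, -0.14 with litter sums, -0.12 without WT replicates 1 to 4 and -0.061 to 0.16 leaving out 1 library. Pln stood at -0.0075 with DESeq2 size factors, -0.14 with flow cell, -0.19 without WT replicates 1 to 4, -0.014 with 5 ventricular UMIs, -0.097 and -0.039 without cells of other markers, -0.023 with thinned gates, -0.056 without endothelial-UMI cells and -0.043 to 0.088 leaving out 1 library. Npr3 stood at 0.013 without WT replicates 1 to 4, Hbb-y at 0.28 with flow cell and 2310050B05Rik at -0.010 with thinned gates. The cause was not tested in any of these. Shallow cells limit all results on low genes: the floor for a gene with no UMI was 0.523 CPM over the WT group.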
